A study of Mus musculus with 4 samples.

Results

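The mitosis and spindle genes examined here were 48 genes of mitotic entry, the spindle checkpoint, the kinetochore, the mitotic kinesins, spindle assembly, cytokinesis and chromosome structure, taken by their symbols from the 24421 genes of the count tables. RNA was sequenced from J558 allografts, tumours that grow after cells of the mouse plasmacytoma line J558 are injected under the skin of the flank of female BALB/c mice. Mice were treated by mouth once daily with 0.5% methylcellulose (Vehicle) or with TAK-931 at 60 mg/kg, and tumours were taken on day 6. TAK-931 is an inhibitor of CDC7, the kinase that fires replication origins, and the comparison asks how the tumour transcriptome differs after treatment. There were 2 Vehicle allografts (Vehicle-1, Vehicle-2) and 2 TAK-931 allografts (TAK-931-1, TAK-931-2), described by the submitters as independent samples. All 4 carried the same transplanted line, the labels gave neither the age of the mice nor a further allele, and each tumour was sequenced whole, with host immune and stromal cells in it.

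A cell enters mitosis when CDK1 bound to cyclin A or cyclin B, helped by the Polo and Aurora kinases, phosphorylates a large set of substrates. Kinetochores then build on centromeres and capture microtubules, and the spindle checkpoint holds back the anaphase-promoting complex until every kinetochore is attached. Most genes of this machinery are switched on late in the cycle, from S phase to mitosis, so that their summed RNA in a tumour is commonly read as a sign of cycling cells. In bulk tissue, fewer cycling cells and less RNA per cycling cell cannot be told apart.

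Because these genes are known to be transcribed together through MuvB complexes and NF-Y, the promoters were searched for their 2 elements, the cell cycle homology region (letters TTTGAA) and the NF-Y site named after its letters CCAAT, on both strands. Matches to the first and to the second can overlap by 1 base at most. Only these exact letters were searched, so a promoter without a match is not shown to lack the element. The RefSeq promoter table (GRCm38.p6, the same coordinates as mm10) holds 250 bases before to 50 bases after each start. It matched 38 of the 48 genes with 41 promoters, and Ccna2, Cdc25c, Foxm1, Spc24, Aurkb, Incenp, Kif20a, Tpx2, Dlgap5 and Smc4 had no entry. The cell cycle homology region was found in 32 of the 41 promoters (78.0%), beside 17.9% of all 32851 promoters in the table. The CCAAT box was found in 31 (75.6%), beside 37.4% of all promoters, and both elements together in 27 (65.9%), beside 6.95%. By gene, the first was found in 29 of 38, the second in 28 and both in 24 (76.3%, 73.7% and 63.2%). The shares over 10348 tested genes were 14.2%, 42.8% and 5.78%. Of the 42 matches to the cell cycle homology region, 30 began between 60 bases before and 50 bases after the start, with a median position of −16.5. Sites shared by overlapping promoters of Ect2, Prc1 and Bub3 are counted for each promoter. The promoters of 5 genes are given, from 150 bases before to 30 bases after the start. They were chosen for the measured values of their genes or, for Ccnb1, for the elements found. Spc25 had the lowest fitted fold change of the 48 genes and Cdc20 the lowest ratio in TAK-931-1. Espl1 had the widest gap between the treated tumours among genes with both elements, and Ccnb1, the main mitotic cyclin, had CCAAT boxes but no match to TTTGAA. Kif15 was the 1 gene above both Vehicle levels in both treated tumours. Capitals mark either element, read on either strand.
Spc25 promoter, chr2:69206184-69206363, minus strand: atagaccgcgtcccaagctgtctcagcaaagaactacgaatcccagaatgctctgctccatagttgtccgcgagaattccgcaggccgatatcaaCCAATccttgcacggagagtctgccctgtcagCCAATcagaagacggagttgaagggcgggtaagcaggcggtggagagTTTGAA
Cdc20 promoter, chr4:118437314-118437493, minus strand: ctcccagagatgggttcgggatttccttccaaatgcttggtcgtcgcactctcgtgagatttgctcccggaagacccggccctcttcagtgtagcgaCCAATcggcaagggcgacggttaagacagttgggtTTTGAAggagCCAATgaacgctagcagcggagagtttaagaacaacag
Espl1 promoter, chr15:102296143-102296322, plus strand: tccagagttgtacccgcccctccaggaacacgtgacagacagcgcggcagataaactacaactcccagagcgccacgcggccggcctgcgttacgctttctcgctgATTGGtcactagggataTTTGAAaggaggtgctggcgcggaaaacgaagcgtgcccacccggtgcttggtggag
Ccnb1 promoter, chr13:100786457-100786636, minus strand: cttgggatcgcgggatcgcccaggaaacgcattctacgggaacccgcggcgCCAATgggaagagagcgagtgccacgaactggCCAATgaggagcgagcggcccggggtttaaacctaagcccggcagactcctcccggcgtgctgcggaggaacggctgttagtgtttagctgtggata
Kif15 promoter, chr9:122950931-122951110, plus strand: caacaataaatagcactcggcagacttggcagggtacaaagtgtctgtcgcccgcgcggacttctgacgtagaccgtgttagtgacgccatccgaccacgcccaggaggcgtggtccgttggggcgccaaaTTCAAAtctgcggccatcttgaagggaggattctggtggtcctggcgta
In Spc25 a pair of CCAAT boxes began at positions −55 and −23, and the cell cycle homology region at 25 after the start. In Cdc20 the cell cycle homology region at −18 lay between CCAAT boxes at −53 and −8, and in Espl1 it began at −27, after a CCAAT box at −44. Ccnb1 had its CCAAT boxes at −99 and −67, whereas the window shown for Kif15 held a cell cycle homology region at −19 and no CCAAT box.

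**Figure D1:**
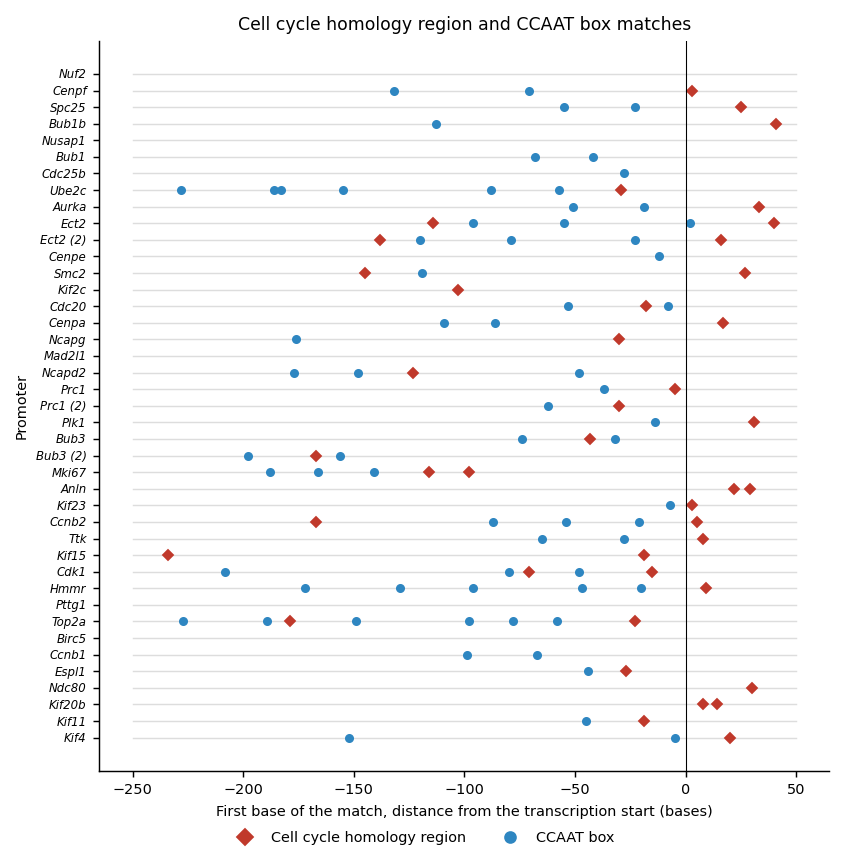
Positions of the cell cycle homology region (red diamonds) and the CCAAT box (blue circles) in the 41 RefSeq promoters of 38 mitosis and spindle genes; the x axis gives the distance of the first base of each match from the transcription start in bases, and (2) marks a second promoter of the same gene. The red diamonds gather near the start, with a median position of −16.5, and 27 of the 41 promoters carry both elements.

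Library depth was between 16487902 and 19589339 counts. The labels call the cells B lymphocytes of the J558 line, and all 15 genes of a plasma cell list had counts in all libraries. TAK-931-1 stood apart: its plasma cell list summed to 6696 CPM (counts scaled by TMM to a common library total), whereas Vehicle-1, Vehicle-2 and TAK-931-2 reached 16758, 16931 and 19475 CPM. Its 12 macrophage genes summed to 9564 CPM, beside 657, 557 and 1716 in the same order, and its 8 fibroblast genes to 14810 CPM, beside 1884, 2141 and 5106. Its 16 T cell genes summed to 2131 CPM, beside 120, 115 and 219, and Trat1, the one marker of that list at 0 anywhere, had no count in either Vehicle library. Its 7 NK cell genes summed to 655 CPM (54.2, 26.1 and 117 in the others, with Klrb1c at 0 in Vehicle-2), and its 8 endothelial genes to 925 CPM (251, 279 and 262). Of the 15 plasma cell genes, 15 were below both Vehicle libraries in TAK-931-1 (47.4% of all genes). In TAK-931-2, 7 were below both (44.4% of all genes) and 8 above both. Their log2 ratios there ran from −0.62 to 1.16, with a median of 0.089. The sum of the list, ratios to it and scaling on it rest on this mix. The part of these host and plasma cell differences in the levels of the mitosis genes was not tested. The biological coefficient of variation was 0.119 between the Vehicle tumours and 0.533 between the treated ones. The main counts and medians are also given without TAK-931-1.

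The mitosis genes were all expressed, and together they took a smaller share of TAK-931-1 than of the other 3 tumours. They held 0.718% of the counts of Vehicle-1 (95% Wilson interval 0.714 to 0.722%), 0.671% of Vehicle-2 (0.668 to 0.675%), 0.438% of TAK-931-1 (0.435 to 0.441%) and 0.716% of TAK-931-2 (0.712 to 0.721%). The share of TAK-931-1 was below the others, and that of TAK-931-2 lay between the Vehicle tumours, so the groups overlapped. The group means were 0.695% ± 0.033 for Vehicle and 0.577% ± 0.197 for TAK-931 (SD, n = 2 each). An exact permutation test of 2 against 2 cannot give a p below 0.333, and such intervals cover counting error only. Relative to the summed plasma cell list, the order was another: the ratio of the summed mitosis genes to that list was 0.432, 0.397, 0.675 and 0.354 for Vehicle-1, Vehicle-2, TAK-931-1 and TAK-931-2, the order kept for values from here on, so that TAK-931-1 was the highest and TAK-931-2 the lowest. Relative to 42 S phase genes (replication factors and nucleotide enzymes) the ratio was 1.24, 1.20, 1.26 and 1.44, and the 4 tumours lay closer together.

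**Figure D2:**
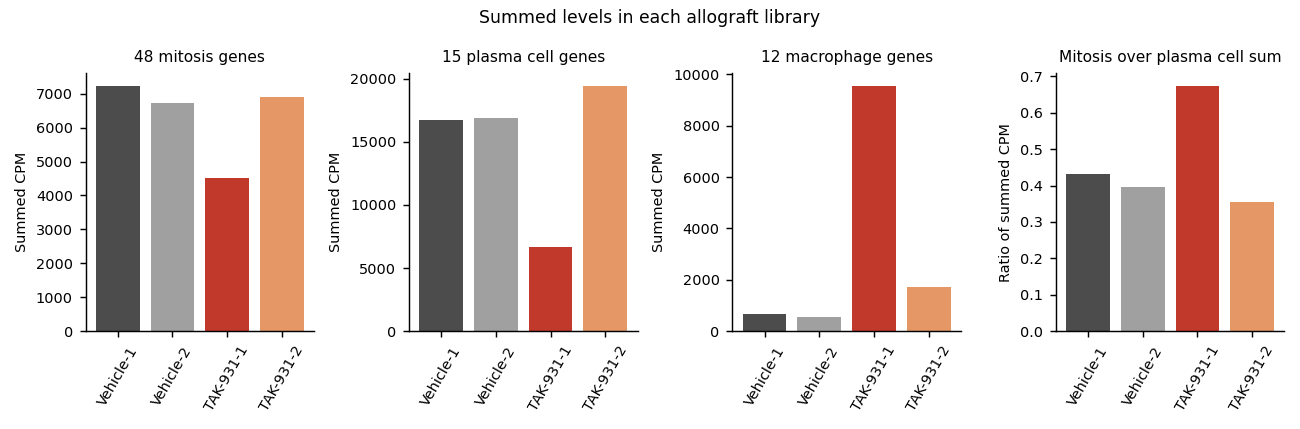
Bars give, for each allograft library, the summed CPM of the 48 mitosis genes, of 15 plasma cell genes and of 12 macrophage genes, and the ratio of the first sum to the second. TAK-931-1 has the lowest mitosis sum (4521 CPM) and the lowest plasma cell sum, and with them the highest ratio (0.675), so its place against the other tumours depends on the scale.

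Between the groups, no mitosis gene passed a test adjusted for the number of genes. All 48 genes passed the filter on low counts, with at least 314 counts in every library. By edgeR's quasi-likelihood test, 0 of the 48 differed at an adjusted p under 0.05 (0.0% of the 13669 genes tested). The lowest Benjamini-Hochberg adjusted p among them was 0.275. That was also the lowest over all genes tested, so this fit called no gene and does not set the mitosis genes apart. At an unadjusted p under 0.05, 4 genes were lower in TAK-931, Ccna2, Ndc80, Spc24 and Spc25 (6.55% of all genes were lower), and 0 were higher (11.6% of all genes were). DESeq2 also gave 0 of the 48 at an adjusted p under 0.05, while it called 10.3% of all genes, and at an unadjusted p it gave 3 lower (6.27% of all genes). limma-voom gave 0 at an adjusted p under 0.05 and 4 lower at an unadjusted p (8.27% of all genes).

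Most of the genes leaned the same way. Under TMM scaling, 43 of the 48 log2 fold changes were negative (49.0% of all genes), with a median of −0.36 beside 0.024 over all genes, whereas scaling on the summed plasma cell list, which moved the median of all genes to 0.75, left 6 of 48 negative with a median of 0.25. With the trend of each library on exon length removed, an alternative chosen after seeing the data, the median was −0.19 beside 0.17 over all genes. Measured from the median of all genes, the median of the mitosis genes differed by −0.38 on the log2 scale under TMM and by −0.50 under plasma cell scaling, with 43 and 44 of the 48 genes on the lower side. Both TAK-931 libraries lay below both Vehicle libraries for 24 of the 48 genes (32.7% of all genes). That count was 17 with library size only (30.6% of all genes) and 1 under plasma cell scaling (7.70% of all genes). Kif15 was the 1 gene with both TAK-931 libraries above both Vehicle libraries (30.0% of all genes), and the groups overlapped for the other 23.

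TAK-931-1 carried most of that difference. It was below both Vehicle libraries for 42 of the 48 genes (47.4% of all genes), and its log2 ratio to the Vehicle mean had a median of −0.65 (all genes −0.017). TAK-931-2 was below both Vehicle libraries for 26 genes (44.4% of all genes), and the median of its log2 ratios was −0.063 (all genes −0.0099). Under plasma cell scaling these medians were 0.68 for TAK-931-1 and −0.27 for TAK-931-2, which turned their order, while measured from the medians of all genes under that scaling (1.30 and −0.22) they were −0.62 and −0.056. Without TAK-931-1, the median log2 fold change of the 48 genes was −0.066, 31 were negative, and the edgeR test gave 15 genes at an adjusted p under 0.05 (28.7% of all genes), of which 13 were lower and 2, Espl1 and Mki67, higher. Without TAK-931-2, the median was −0.67, 45 were negative and 40 genes were at an adjusted p under 0.05 (58.1% of all genes). Over all genes, the medians of these fits were −0.024 without TAK-931-1 and 0.011 without TAK-931-2. Measured from them, the median of the 48 genes differed by −0.043 and −0.685, with 30 and 45 genes on the lower side. Either of these fits holds a single treated tumour, which is assumed to vary as the Vehicle pair does. Without Vehicle-1 or without Vehicle-2, 0 of the 48 passed, also at an unadjusted p. These fits gave 0 of all genes at an adjusted p under 0.05, and 0.36% and 0.46% of all genes were lower at an unadjusted p. The Vehicle tumours themselves were ordered: Vehicle-1 was above Vehicle-2 for 39 of the 48 genes (48.8% of all genes).

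**Figure D3:**
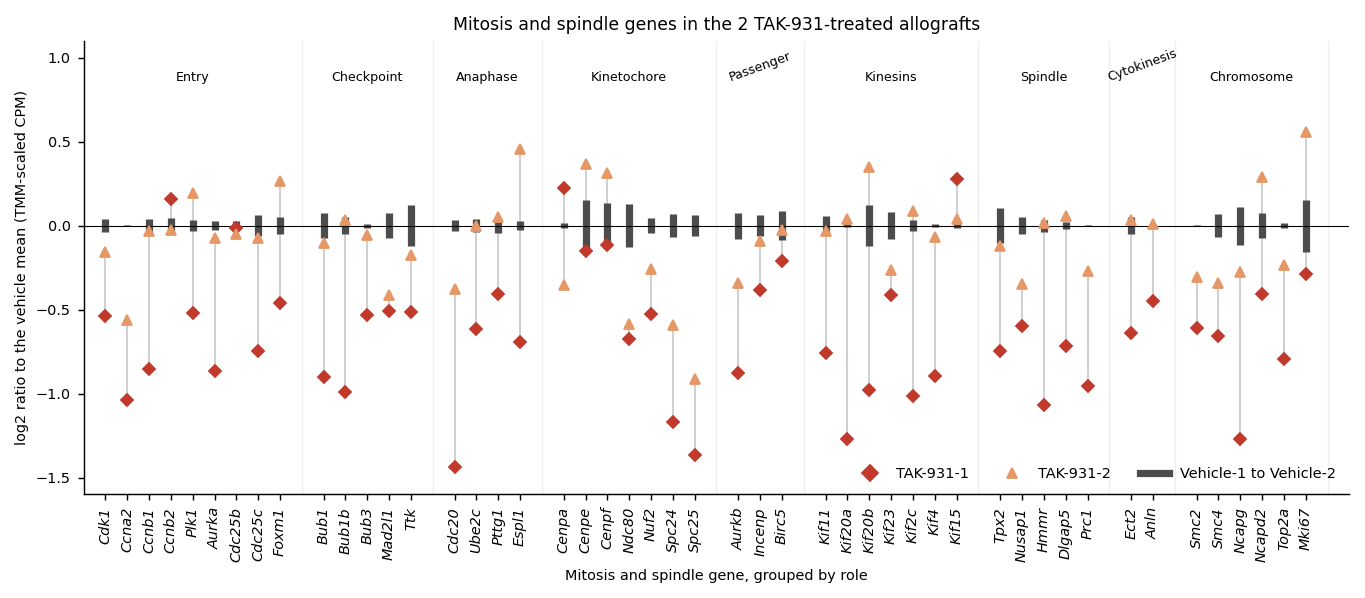
Log2 ratio of TAK-931-1 (dark red diamonds) and TAK-931-2 (orange triangles) to the Vehicle mean, in TMM-scaled CPM, for the 48 mitosis and spindle genes in order of role; the black bar spans Vehicle-1 to Vehicle-2 around their mean. Under this scaling TAK-931-1 lies below the bar for 42 genes and TAK-931-2 for 26, while under scaling on the plasma cell list the median log2 ratio of TAK-931-1 is 0.68 and that of TAK-931-2 −0.27.

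Of the 9 genes of mitotic entry (kinases, cyclins, CDC25 phosphatases and the factor FOXM1), 8 had a negative log2 fold change under TMM, with a median of −0.34, and 1 had one under plasma cell scaling. Without TAK-931-1, their median was −0.056, with 7 of 9 negative. The median over all genes in that fit, −0.024, stands beside this and all further medians without TAK-931-1. Ccna2, the cyclin A that serves S phase and mitotic entry, was at 170, 169, 82.3 and 115 CPM. Both treated tumours were below both Vehicle tumours, at 48.6% and 67.7% of the Vehicle mean, and the groups did not overlap. Its log2 fold change was −0.78 ± 0.26 (SE; edgeR quasi-likelihood adjusted p = 0.275) and −0.15 under plasma cell scaling. Exons of Ccna2 share 13.4% of their bases with Exosc9 on the opposite strand, and the strand setting of the counts is unknown. Without TAK-931-1 the log2 fold change was −0.56. The gene lies at chr3:36564865-36571996 (mm10, minus strand).

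Cyclin B showed a different picture. Ccnb1, the main mitotic cyclin and the entry gene with the highest mean level, was at 225, 214, 121 and 214 CPM. TAK-931-1 alone was low, TAK-931-2 was level with Vehicle-2, and the groups overlapped (log2 fold change −0.39 ± 0.35). Ccnb2, a second B-type cyclin, was at 79.9, 75.2, 86.7 and 76.1 CPM, with TAK-931-1 the highest and TAK-931-2 among the Vehicle values (0.070 ± 0.21). Cdk1, their kinase partner, was at 137, 145, 97.1 and 126 CPM, below both Vehicle tumours in both treated ones. Plk1, the Polo kinase, at 143, 136, 97.4 and 160 CPM, and Foxm1, the transcription factor of this programme, at 88.9, 82.7, 62.2 and 103 CPM, were lowest in TAK-931-1 and highest in TAK-931-2. Aurka, the centrosomal Aurora kinase, and Cdc25c, a phosphatase that activates CDK1, were at 67.0 and 24.9 CPM in TAK-931-1, below their Vehicle means of 122 and 41.9 CPM, and at 116 and 39.8 CPM in TAK-931-2. Cdc25b, another such phosphatase, differed least, at 98.9% and 96.4%.

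All 5 genes of the spindle checkpoint had a negative log2 fold change under TMM (median −0.39), and 0 of 5 had one under plasma cell scaling. Once TAK-931-1 was left out, the median was −0.11 and 4 of 5 were negative, with Bub1b at 0.029. Mad2l1, whose product MAD2 binds and inhibits CDC20, was at 95.9, 86.4, 63.8 and 68.4 CPM. The treated tumours were close to each other here and both below the Vehicle tumours, at 70.0% and 75.0% of the Vehicle mean, for a log2 fold change of −0.46 ± 0.20 (edgeR quasi-likelihood adjusted p = 0.295). Bub1b, encoding BUBR1 of the mitotic checkpoint complex, was at 243, 226, 118 and 240 CPM. Only TAK-931-1 was low among the 4 libraries, and the groups overlapped (−0.39 ± 0.41). Bub3, the WD40 partner of BUB1 and BUBR1, was at 189, 192, 132 and 183 CPM, without overlap (−0.28 ± 0.26). Bub1 and Ttk, the checkpoint kinases BUB1 and MPS1, were likewise below both Vehicle tumours in both treated ones, Bub1 at 53.5% and 92.8% and Ttk at 69.7% and 88.2% of the Vehicle mean. The gaps were narrow in TAK-931-2, at 82.0 CPM beside 83.6 in Vehicle-2 for Bub1 and 42.1 beside 43.6 for Ttk.

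The 4 genes of the anaphase step had a median log2 fold change of −0.22 under TMM and of 0.39 under plasma cell scaling, and it was 0.019 without TAK-931-1, with 2 of 4 negative. Cdc20, the activator of the anaphase-promoting complex, with the cell cycle homology region between its CCAAT boxes, was at 345, 330, 125 and 260 CPM. It stood at 36.9% of the Vehicle mean in TAK-931-1, the lowest of the 48 genes in that tumour, and at 76.9% in TAK-931-2, and the groups did not overlap. Its log2 fold change was −0.81 ± 0.42 (edgeR quasi-likelihood adjusted p = 0.33), −0.38 without TAK-931-1 and −0.33 under plasma cell scaling. Of its exon bases, 2.91% are shared with Elovl1 on the opposite strand, which had 776, 704, 1526 and 765 counts. Ube2c, the E2 enzyme of the same complex, was at 260, 245, 164 and 252 CPM, with TAK-931-2 between the Vehicle tumours (−0.28 ± 0.30). It had the highest level per length of the 48 genes, 247 CPM per kilobase of exon as the mean of the 4 libraries, ahead of Cdc20 with 149 CPM per kilobase. Espl1, encoding separase, which cleaves cohesin, was at 130, 125, 78.9 and 175 CPM, with 1 treated tumour below and the other above both Vehicle tumours, and its fitted log2 fold change was −0.0074 ± 0.43. Pttg1, encoding securin, the inhibitor of separase, was at 75.3% and 104% of the Vehicle mean.

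Among the 7 kinetochore genes, the 4 subunits of the NDC80 complex were lower in both treated tumours under TMM, whereas the centromere genes Cenpa, Cenpe and Cenpf were not; under plasma cell scaling 2 of the 4 subunits, Spc24 and Spc25, stayed negative. The NDC80 complex is the part of the outer kinetochore that binds microtubules, and it was singled out after the values were seen. Spc25 was at 44.7, 40.9, 16.5 and 22.6 CPM. Both treated tumours were far below both Vehicle tumours, at 38.7% and 52.9% of the Vehicle mean, and the log2 fold change of −1.13 ± 0.28 (edgeR quasi-likelihood adjusted p = 0.275) was the lowest of the 48 genes. It was −0.49 under plasma cell scaling. The gene lies at chr2:69193895-69206213 (mm10, minus strand).

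Spc24, the partner of SPC25 at the inner end of the complex, was at 103, 93.5, 43.5 and 65.1 CPM, with no overlap (−0.85 ± 0.28, edgeR quasi-likelihood adjusted p = 0.275). Ndc80, encoding the microtubule-binding subunit HEC1, was at 77.9, 65.3, 44.7 and 47.6 CPM. Here the treated tumours lay close together, at 62.4% and 66.4% of the Vehicle mean, for a log2 fold change of −0.63 ± 0.22 and 0.10 under plasma cell scaling. Nuf2, the partner of HEC1, was at 89.3, 83.7, 59.9 and 72.3 CPM, again without overlap (−0.39 ± 0.22). Over the 4 subunits the median log2 fold change was −0.74 and the median log2 ratios were −0.92 (TAK-931-1) and −0.59 (TAK-931-2), beside −0.34, −0.63 and −0.044 over the other 44 genes. Without TAK-931-1, the log2 fold changes were −0.92 for Spc25, −0.59 for Spc24, −0.59 for Ndc80 and −0.26 for Nuf2. The subunit genes have short summed exon lengths, 1349 bases for Spc24, 1846 for Spc25, 2201 for Ndc80 and 2405 for Nuf2, beside a median of 3184 over the 48 genes, whereas Cenpe and Cenpf have 7813 and 11122 bases and Cenpa 1581. With the trend on exon length removed, the log2 fold changes were −0.83 for Spc25, −0.51 for Spc24, −0.37 for Ndc80 and −0.15 for Nuf2, and Spc24 and Ndc80 were no longer at an unadjusted p under 0.05. The values of Cenpa, Cenpe and Cenpf were then 0.32, −0.031 and −0.16.

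The centromere genes lay on both sides. Cenpe, the kinesin that moves chromosomes to the spindle equator, was at 115, 92.9, 93.0 and 133 CPM, with TAK-931-1 level with Vehicle-2 and TAK-931-2 the highest of all (0.12 ± 0.28). Cenpf, a large kinetochore protein, followed the same order at 66.1, 54.7, 55.4 and 74.9 CPM. Cenpa, the centromeric histone H3 variant, went the other way, at 99.4, 101, 117 and 78.6 CPM, highest in TAK-931-1 and lowest in TAK-931-2. Cenpf also had the lowest level per length of the 48 genes, 5.64 CPM per kilobase.

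**Figure D4:**
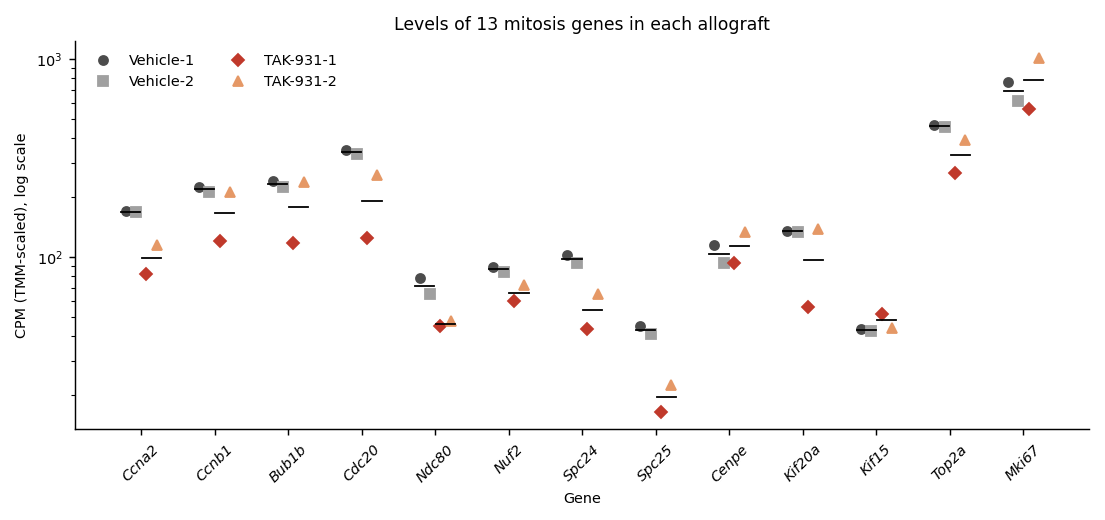
CPM after TMM scaling (y axis, log scale) of 13 mitosis genes in each allograft library; short black lines are the group means of 2 libraries. Both treated tumours lie below both Vehicle tumours for Ccna2, Cdc20, Ndc80, Nuf2, Spc24, Spc25 and Top2a, of which Ndc80, Nuf2 and Top2a have a positive log2 fold change under plasma cell scaling, while TAK-931-2 is the highest of the 4 for Cenpe, Kif20a and Mki67.

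The 3 genes of the chromosomal passenger complex, which corrects wrong attachments at centromeres, had negative log2 fold changes under TMM (median −0.23) and positive ones under plasma cell scaling (median 0.45). The median without TAK-931-1 was −0.098, with 3 of 3 negative. Aurkb, its kinase, was at 157, 141, 80.7 and 117 CPM, with both treated tumours below both Vehicle tumours, at 54.3% and 78.8% of the Vehicle mean (−0.59 ± 0.28, edgeR quasi-likelihood adjusted p = 0.306). Incenp, the scaffold of the complex, was at 249, 228, 183 and 223 CPM (−0.23 ± 0.24). Birc5, encoding survivin, was at 130, 115, 106 and 120 CPM (−0.12 ± 0.22). Incenp did not overlap between groups but lay only just below Vehicle-2 in TAK-931-2, and Birc5 overlapped.

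Of the 7 mitotic kinesins, motors that slide or disassemble spindle microtubules, 6 had a negative log2 fold change under TMM (median −0.35) and 1 under plasma cell scaling. Their median log2 ratio was −0.90 for TAK-931-1 and 0.039 for TAK-931-2, the widest gap among the roles with at least 5 genes, and without TAK-931-1 the median log2 fold change was 0.036, with 3 of 7 negative. Kif20a, a kinesin of the central spindle, was at 136, 134, 55.8 and 139 CPM. TAK-931-1 was at 41.4% of the Vehicle mean and TAK-931-2 at 103%, so the log2 fold change of −0.47 ± 0.48 rests on 1 tumour and was 0.036 without it. Exons of Kif20a share 28.6% of their bases with Cdc23 and 5.86% with Brd8, both on the opposite strand. Kif11, the motor that separates spindle poles, was at 165, 152, 93.6 and 155 CPM, low in TAK-931-1 alone (−0.35 ± 0.32).

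Kif2c and Kif20b, like Kif20a, were lowest in TAK-931-1 and highest in TAK-931-2. Kif2c, a microtubule depolymerase, was at 49.4% and 106% of the Vehicle mean and Kif20b at 50.4% and 127%. Kif4, a chromosome-bound kinesin, and Kif23, a kinesin of the midbody, lay below both Vehicle tumours in both treated ones, Kif4 at 53.6% and 95.3% and Kif23 at 75.0% and 83.0% of the Vehicle mean. Kif15, a kinesin that can stand in for KIF11, was at 43.1, 42.3, 51.7 and 43.9 CPM. Both treated tumours were above both Vehicle tumours, TAK-931-2 by less than 1 CPM over Vehicle-1, and the log2 fold change was 0.16 ± 0.22 (edgeR quasi-likelihood adjusted p = 0.662).

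All 5 spindle assembly genes had a negative log2 fold change under TMM (median −0.43) and a positive one under plasma cell scaling (median 0.19). With TAK-931-1 left out, the median was −0.13 and 3 of 5 were negative, with Prc1 at −0.27, Tpx2 at −0.13 and Dlgap5 at 0.056. Prc1, which bundles microtubules of the central spindle, was at 189.5, 190.1, 97.7 and 158 CPM, without overlap (−0.57 ± 0.31, edgeR quasi-likelihood adjusted p = 0.344). Tpx2, the activator of Aurora A on the spindle and the gene of this role with the highest mean level, was at 225, 195, 125 and 193 CPM (−0.40 ± 0.31), and Dlgap5, a microtubule-associated protein of the spindle, was at 111, 108, 66.6 and 114 CPM (−0.28 ± 0.33). The groups did not overlap for Prc1 and, by a narrow margin, for Tpx2, and they did for Dlgap5. Nusap1, a spindle-associated protein, was at 66.1% and 78.4% of the Vehicle mean, and 7.03% of its exon bases are shared with Oip5 on the opposite strand. Hmmr, encoding a spindle pole protein, was at 47.6% in TAK-931-1 and 101% in TAK-931-2.

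The 2 cytokinesis genes overlapped between groups, with negative log2 fold changes under TMM and positive ones under plasma cell scaling and without TAK-931-1 (0.027 for Ect2 and 0.0071 for Anln). Ect2, the exchange factor that activates RhoA at the cell equator, was at 64.2, 68.8, 42.6 and 67.9 CPM (−0.27 ± 0.30). Anln, encoding the contractile ring scaffold anillin, was at 45.2, 45.4, 33.1 and 45.6 CPM (−0.20 ± 0.26). In both, TAK-931-1 was the lowest tumour and TAK-931-2 was level with the Vehicle tumours.

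Of the 6 genes of chromosome structure, 5 had a negative log2 fold change under TMM (median −0.47), 1 under plasma cell scaling and 4 without TAK-931-1 (median −0.26). Ncapg, a subunit of condensin I, was at 107, 91.1, 40.7 and 81.5 CPM, without overlap, and had the lowest log2 fold change of this role, −0.69 ± 0.40 (edgeR quasi-likelihood adjusted p = 0.359), of which −0.28 was left without TAK-931-1. Its exons share 20.8% of their bases with Lcorl on the opposite strand. Top2a, the topoisomerase that untangles sister chromatids, was at 465, 454, 265 and 390 CPM, with both treated tumours below both Vehicle tumours (−0.49 ± 0.29). Smc2 and Smc4, the ATPase core of condensin, were likewise below, Smc2 at 65.4% and 80.8% and Smc4 at 63.2% and 78.8% of the Vehicle mean. Ncapd2, another condensin I subunit, was below in TAK-931-1 (75.4%) and above in TAK-931-2 (122%).

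Mki67, encoding the proliferation marker Ki-67 that coats mitotic chromosomes, was the most abundant of the 48 genes in CPM. It was at 760, 614, 560.0 and 1006 CPM. TAK-931-1 was the lowest tumour and TAK-931-2 the highest, at 81.5% and 146% of the Vehicle mean, and the highest log2 fold change of the 48 genes, 0.19 ± 0.37 (edgeR quasi-likelihood adjusted p = 0.776), was a mean of opposite values. Per kilobase of exon its mean level, 73.0 CPM, was below those of Top2a (75.4), Ccnb1 (83.5) and Bub3 (84.7).

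The genes above Vehicle in TAK-931-2 tended to be long ones. Without TAK-931-1, 7 genes were higher at an unadjusted p under 0.05 (18.2% of all genes were), Foxm1, Espl1, Cenpe, Cenpf, Kif20b, Ncapd2 and Mki67, each with more exon bases than the median of 3184 over the 48 genes. The log2 ratio of TAK-931-2 to the Vehicle mean correlated with the log2 summed exon length at a Pearson's r of 0.57 and a Spearman's rho of 0.51 across the 48 genes, which share their libraries and are not independent. Across the 9621 genes with a mean log2 CPM over 3, the same r was 0.23 and rho 0.31, and across all 13669 genes tested they were 0.12 and 0.21. For TAK-931-1 the values across the 48 genes were 0.15 and 0.13, and between the Vehicle tumours (the log2 ratio of the first to the second) they were 0.30 and 0.19. The 12 shortest genes (up to 2055 bases) had a median of −0.21 for TAK-931-2, with 11 of 12 negative, and the 12 longest (4514 to 11122 bases) had 0.16, with 4 of 12 negative. With the trend on exon length removed, the log2 fold change of Mki67 was −0.053, that of Mad2l1 −0.14 and that of Bub3 −0.0068. At an unadjusted p under 0.05, Ccna2 and Spc25 then stayed lower (4.09% of all genes), and Ndc80 and Spc24 did not pass. The part of exon length in these values was not tested further.

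**Figure D5:**
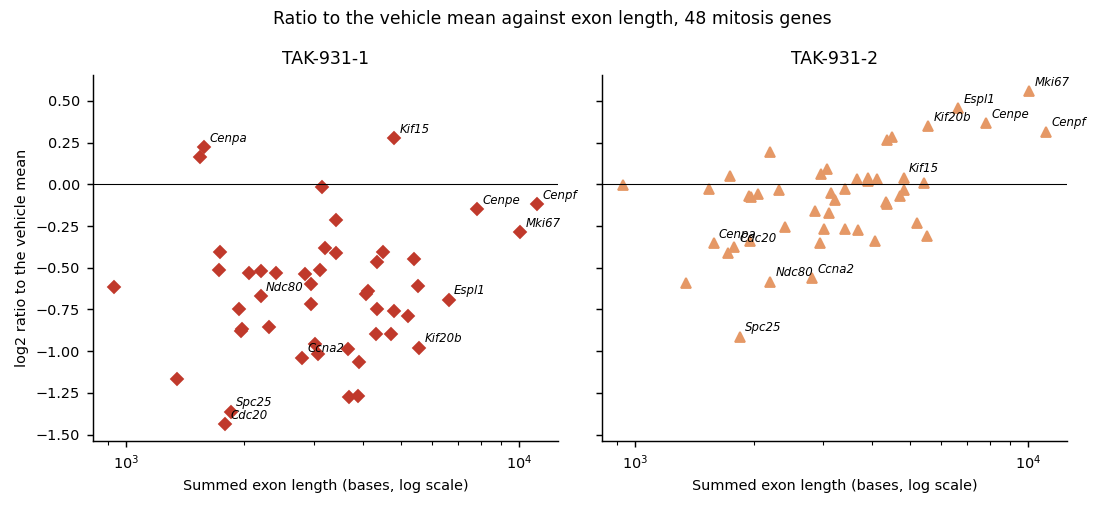
Log2 ratio to the Vehicle mean (y axis) against summed exon length in bases (x axis, log scale) for the 48 mitosis genes, in TAK-931-1 (left) and TAK-931-2 (right), with 11 genes named. The points rise with length in TAK-931-2 (Pearson's r 0.57) and scatter in TAK-931-1 (r 0.15), where most lie below 0 under TMM; under plasma cell scaling the median of the left panel is 0.68.

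The treated tumours shared only part of the order among the genes. Ratios that used no library in common, TAK-931-1 to Vehicle-1 and TAK-931-2 to Vehicle-2, correlated across the 48 genes at a Pearson's r of 0.31 and a Spearman's rho of 0.29, and with the Vehicle tumours exchanged at 0.33 and 0.26. Under TMM, TAK-931-1 was below TAK-931-2 for 44 of the 48 genes (49.6% of all genes), and under plasma cell scaling for 0 of the 48 (4.51% of all genes). The exceptions under TMM were Ccnb2, Cdc25b, Cenpa and Kif15. Under TMM, the median log2 fold change was −0.34 over 29 genes with a match to the cell cycle homology region and −0.39 over 9 without a match. It was −0.44 over the 10 genes with no promoter entry. Over the 24 genes with both elements it was −0.34, beside 0.0072 over 574 other tested genes that carry both.

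The median difference of related genes of the same processes was close to that of the 48, over a wider range, −1.75 to 2.11 beside −1.13 to 0.19 under TMM, and under plasma cell scaling both medians were positive. Of 92 other mitosis genes (further centromere, kinetochore, anaphase-promoting complex, midzone and condensin genes), 74 had a negative log2 fold change under TMM, with a median of −0.37, and 25 had one under plasma cell scaling, with a median of 0.29. None passed an adjusted p under 0.05 by edgeR or limma-voom, and DESeq2 gave 3 lower and 1 higher (10.3% of all genes in either direction). At an unadjusted p under 0.05, 12 were lower and 1 was higher (6.55% and 11.6% of all genes), and both treated tumours were below both Vehicle tumours for 49 (32.7% of all genes). Their median log2 ratios were −0.63 (TAK-931-1) and −0.15 (TAK-931-2), beside −0.65 and −0.063 for the 48 genes. Without TAK-931-1, their median log2 fold change was −0.15, 58 were negative, and 25 were lower and 9 higher at an adjusted p under 0.05 by edgeR (28.7% of all genes in either direction). The lowest was Oip5, a centromere loading factor, at 28.5, 27.9, 7.59 and 9.10 CPM (−1.75 ± 0.30). It was followed by Pbk, a mitotic kinase (−1.40 ± 0.30), and Depdc1b (−1.40 ± 0.49). The highest were Psrc1, a microtubule regulator, at 3.44, 2.40, 19.8 and 5.48 CPM (2.11 ± 0.79), Cit, the citron kinase of the midbody, at 13.8, 12.3, 24.1 and 36.7 CPM (1.22 ± 0.34), and Lin37, a subunit of the MuvB core (0.55 ± 0.35). In these 3 genes both treated tumours were above both Vehicle tumours.

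Of 42 S phase genes, 37 had a negative log2 fold change under TMM (median −0.39) and 12 under plasma cell scaling (median 0.29). At an unadjusted p under 0.05, 8 were lower and 0 higher (6.55% and 11.6% of all genes), and 0 passed an adjusted p under 0.05 by edgeR, limma-voom or DESeq2. The median log2 ratio was −0.60 for TAK-931-1 and −0.21 for TAK-931-2. Without TAK-931-1, the median log2 fold change of the S phase genes was −0.21, 32 were negative, and 16 were lower and 1 higher at an adjusted p under 0.05 by edgeR (28.7% of all genes in either direction). The lowest were Cdc45, a helicase subunit, at 172, 156, 49.2 and 103 CPM (−1.11 ± 0.42), Prim1, the primase catalytic subunit (−0.89 ± 0.28), and Chaf1b, a histone chaperone subunit (−0.85 ± 0.27). The highest were Orc1, of the origin recognition complex (0.42 ± 0.30), Lig1, the replicative DNA ligase (0.22 ± 0.30), and Tk1, thymidine kinase (0.17 ± 0.20). The 5 genes outside the 48 that lay nearest to the median profile of the mitosis genes over the 4 libraries were Baz1b, Arl16, Znhit1, Hrsp12 and Nup54, with a root mean square distance of 0.018 to 0.026 in log2 CPM.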

How the data were processed

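Bulk RNA was sequenced from 4 allograft tumours. Per the submitters' processing notes, reads were aligned with STAR 2.6.1c to mm10 and counted with featureCounts. The authors deposited 1 table of raw counts per gene for each library, with no normalization, and another deposited numeric column gave each gene's summed exon length in bases. The strand setting was not given in the sources used here. Among counts of 1 to 20, odd values made up 17.9% to 23.9%, so both mates of a pair appear to be counted, and intervals are too narrow.

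Groups were taken from the labels. Genes were kept with filterByExpr (minimum count 10) of edgeR 4.0.16 in R 4.3.3 and scaled by TMM, and TAK-931 was compared with Vehicle by the robust quasi-likelihood test, two-sided, with treatment as the only term and Benjamini-Hochberg adjustment over 13669 genes. Log2 ratios of single libraries used a prior count of 2. Alternatives were median-of-ratios factors, library size, scaling on 15 plasma cell genes, other filters, a replicate block, each library left out, DESeq2 1.42.0, limma-voom (limma 3.58.1), an exon length trend removed (chosen after seeing the data) and fits without robust estimation or with halved counts.

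The 48 genes, their roles and the lists were chosen with earlier results of these data known. Genes named with full values were, per role, those with the highest mean CPM and the lowest and highest log2 fold change, those with an unadjusted p under 0.05, and the 5 highest in CPM per kilobase; of the other mitosis and S phase lists, the 3 lowest and 3 highest log2 fold changes; and the 5 genes nearest to the median profile among those with a mean log2 CPM over 3. Other genes were described after their values were seen. Promoters came from RefSeq (GRCm38.p6). Replicates were described as independent samples, so p-values rest on the spread between tumours. The main fit took 1 spread per gene for both groups. The biological coefficient of variation was 0.119 within Vehicle, 0.533 within TAK-931 and 0.436 in the joint fit.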

Additional observations from a re-analysis of the deposited data

How the results depend on the processing

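Of the 48 genes, 0 were at an adjusted p under 0.05 in every fit that kept all 4 libraries, and between 0 and 40 with 1 library left out (0 to 58.1% of all genes). The number lower at an unadjusted p under 0.05 was 4 (6.55% of all genes), and 1 with library size only (4.49% of all genes), 0 with plasma cell scaling (0.066%), 2 with the exon length trend removed (4.09%, chosen after seeing the data) and 0 to 40 with 1 library left out (0.36% to 32.1%). The number higher was 0, and 0 to 7 with 1 library left out (6.5% to 31.1% of all genes), the 7 being without TAK-931-1 (18.2%). The median log2 fold change of −0.36 became 0.25 under plasma cell scaling and −0.19 with the exon length trend removed (all genes 0.75 and 0.17). With 1 library left out, it ranged from −0.67 (all genes 0.011) to −0.066 (all genes −0.024). The 24 genes with both treated tumours below (32.7% of all genes) became 1 under plasma cell scaling (7.70%) and 22 to 45 with 1 library left out (35.2% to 46.1%). They were 18 with median-of-ratios factors (30.3%), 17 with library size only (30.6%) and 19 with at least 10 counts in every library (31.7%). The median log2 ratio of TAK-931-1 became 0.68 under plasma cell scaling. The cause was not tested. The replicate numbers share only a number, with a correlation of 0.004 between the deviations of same-numbered libraries across 13669 genes. With a replicate block, 2 genes were lower at an unadjusted p under 0.05 (5.16% of all genes), 0 passed the adjusted threshold, and 144 of all genes did, as against 0 without it.

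Single genes turned direction mainly under plasma cell scaling, where the log2 fold changes were 0.16 for Ccnb1, 0.10 for Bub1b, 0.27 for Mad2l1, 0.36 for Bub3, 0.46 for Espl1, 0.45 for Incenp, 0.033 for Aurkb, 0.59 for Birc5, 0.22 for Kif11, 0.19 for Tpx2, 0.0092 for Prc1, 0.28 for Dlgap5, 0.32 for Ect2, 0.44 for Anln, 0.10 for Ndc80, 0.32 for Ube2c and 0.13 for Top2a. Espl1, at −0.0074, was also 0.036 with median-of-ratios factors, 0.026 with library size only, 0.057 with at least 10 counts in every library, 0.036 by DESeq2 and 0.016 with halved counts. With the exon length trend removed, Cenpe was −0.031, Birc5 0.022, Mki67 −0.053 and Ube2c 0.059. With 1 library left out, the log2 fold changes ranged from −0.030 to 0.14 for Ccnb2, −1.01 to 0.029 for Bub1b, −0.71 to 0.45 for Espl1, −0.18 to 0.36 for Cenpe, −1.30 to 0.036 for Kif20a, −0.74 to 0.056 for Dlgap5, −0.66 to 0.027 for Ect2, −0.47 to 0.0071 for Anln and −0.32 to 0.55 for Mki67. The other 271 values of named genes from fits with all libraries kept their direction and their side of the adjusted threshold of 0.05. At an unadjusted p under 0.05, none of Ccna2, Ndc80, Spc24 and Spc25 passed under plasma cell scaling. In the other fits with all libraries, Ccna2, Ndc80 and Spc24 no longer passed with library size only, and Ccna2 and Ndc80 with the replicate block. Ndc80 and Spc24 did not pass with the exon length trend removed. Ndc80 also failed with median-of-ratios factors, with at least 10 counts in every library and by DESeq2. Depth limited no value: each gene had at least 314 counts in every library.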
